A study of Mus musculus with 19 samples.

Results

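The 39 genes described here encode the glutathione, peroxidase and thioredoxin antioxidant enzymes of the mouse ovary, with their sensor and regulator. They were taken by gene symbol from a list of 39 names, and each name matched 1 of the 36172 rows of the count table. All 39 passed the filter on low counts, among 15518 genes tested. Whole-ovary RNA from female C57BL/6 mice, an inbred strain with no transgene or treatment in the labels, was sequenced at 3, 6, 9 and 12 months of age, with 5, 5, 5 and 4 libraries. Replicate numbers follow sample order within an age and pair nothing across ages. Whether the libraries of an age are different animals is not in the labels, so the p-values cover the spread among libraries, part of which may be technical.

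Cells remove superoxide with superoxide dismutases, which make hydrogen peroxide. Catalase splits the peroxide itself, while glutathione peroxidases and peroxiredoxins reduce it with electrons that come from NADPH through glutathione or thioredoxin. The transcription factor NRF2, encoded by Nfe2l2, switches on many of these genes, and KEAP1 holds it in check by leading it to breakdown. In the ovary, steroid synthesis and ovulation produce oxidants, and glutathione is abundant in the oocyte.

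At 12 months, 5 of the 39 genes differed from 3 months and the remaining 34 did not pass the test. Gpx1, the glutathione peroxidase of the cytosol, was 1.79-fold higher at 12 months and had the largest change of the 39 in that comparison. Keap1 was 1.18-fold higher and Gstm1, a glutathione transferase, 1.19-fold higher, while Prdx4, a peroxiredoxin of the endoplasmic reticulum, and Nfe2l2 were lower. The count of 5 of 39 (12.8%) stood beside 22.4% of all genes tested, and the difference between these shares was not tested. Against 3 months, 0 passed at 6 months and 6 passed at 9 months, beside 0.0193% and 25% of all genes tested, and 8 passed along a straight line with age, beside 29.5%.

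Library totals ran from 10851519 to 14302207 estimated counts, and the lowest value of any of the 39 in a library was 59.6 estimated counts, for Nqo1. Oocyte, granulosa and theca markers were present in every library, as were 5 oviduct markers. The oviduct markers summed to 1777 to 6341 CPM (gene counts relative to the TMM-scaled library total). Of those 5, 2 were higher at 12 and 1 at 9 than at 3 months. Their median sum was 2142 CPM at 3 months, 3258 CPM at 9 months and 3736 CPM at 12 months. Of 10 granulosa markers, 2 were lower at 12 and 2 at 9 than at 3 months. All 10 oocyte markers were lower at 12 than at 3 months, with a summed level of 58.4 to 142 CPM at 12 months and 296 to 470 CPM at 3 months. In whole-ovary RNA, fewer cells of a type and less RNA per cell cannot be told apart. Of 12 macrophage markers, 7 were higher at 12 months and 10 at 9 months against 3 months, and none was at 0 in every library. Their summed CPM was 512 to 849 in 3 month libraries, 582 to 725 in 6 month, 681 to 1399 in 9 month and 817 to 1291 in 12 month libraries. Of 6 theca markers, 4 were lower at 12 and 5 at 9 than at 3 months, with sums of 378 to 403 CPM at 12 months and 767 to 1133 CPM at 3 months. Of 8 endothelial markers, 4 were higher at 12 and 7 at 9 than at 3 months, and of 7 surface epithelium markers 3 and 4 were. Of 8 lymph node and B cell markers 7 were tested, of which 4 were higher at 12 and 5 at 9 than at 3 months. The sum over all 8 reached 109 and 159 CPM in 9 month libraries 1 and 2 and 243 CPM in 12 month library 2. It was at most 16.98 CPM in any other library. The part of oocyte, granulosa, theca, oviduct, endothelial, epithelial and lymph node RNA in the results below was not tested. For lymph node RNA only, fits without the 3 libraries rich in it were run. Alb, which encodes the liver protein albumin, reached 44.0, 109, 362 and 16.2 CPM in 9 month libraries 1 to 4, against 3.08 CPM in library 5 and at most 5.07 CPM at every other age. Library numbers in the titles run in order of age. Whether they give an order of handling is not in the labels, and such an order could not be told apart from age.

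Glutathione peroxidases differ, among much else, in the codon of the catalytic residue, which is shown here to tell the selenocysteine enzymes from the cysteine enzymes. In Gpx1, Gpx3 and Gpx4 the catalytic residue is selenocysteine, written by a TGA codon that elsewhere ends translation, and in Gpx7 and Gpx8 it is cysteine. Thioredoxin reductases carry the same selenocysteine codon as the next to last of the protein. The coding stretches below are on the gene's own strand, from GENCODE M21 on GRCm38 (mm10), with the catalytic codon in capitals.
Gpx1: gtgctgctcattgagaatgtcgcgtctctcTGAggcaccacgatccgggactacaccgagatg
Gpx3: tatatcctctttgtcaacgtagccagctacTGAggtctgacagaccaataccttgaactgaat
Gpx4: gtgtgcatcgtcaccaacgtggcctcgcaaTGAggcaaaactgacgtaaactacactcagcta
Gpx7: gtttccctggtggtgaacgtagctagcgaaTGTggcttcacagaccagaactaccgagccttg
Gpx8: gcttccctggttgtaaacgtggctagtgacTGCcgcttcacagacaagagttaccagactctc
Txnrd1: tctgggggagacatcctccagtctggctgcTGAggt
Txnrd2: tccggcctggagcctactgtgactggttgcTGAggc

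The bases beside the codon matched those of Gpx1 at 40% of positions in Gpx3, 53.33% in Gpx4, 50% in Gpx7 and 41.67% in Gpx8. The catalytic codon was number 47 of 201 in Gpx1, 73 of 226 in Gpx3, 73 of 197 in Gpx4, 56 of 186 in Gpx7 and 79 of 209 in Gpx8. In the reductases it was number 498 of 499 in Txnrd1 and 526 of 527 in Txnrd2.

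NRF2 acts with small MAF proteins through a DNA element whose core can be written TGACNNNGC. That core was searched on both strands of the RefSeq promoter windows (GRCm38.p6), each running from 250 bases before a gene's start to 50 bases from the start on. Of the 39 genes, 34 had at least 1 window, and Sod3, Prdx6, Gclc, Gsr and Gsta4 had none. The core lay in 9 of 42 windows of these genes (21.4%) and in 4071 of 32851 windows of all genes (12.4%). A match is a description of the letters and not evidence of a bound site. No other motif was searched, so overlap with other elements was not counted. The 9 matches are given with 10 bases on either side and the core in capitals, on the strand that carries the core.
Nfe2l2: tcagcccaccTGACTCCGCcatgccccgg
Srxn1: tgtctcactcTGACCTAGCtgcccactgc
Gclm: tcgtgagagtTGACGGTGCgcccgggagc
Prdx1: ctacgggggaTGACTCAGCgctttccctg
Txnrd1: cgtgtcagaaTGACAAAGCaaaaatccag
Sod1: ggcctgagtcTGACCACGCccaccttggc
Gsta3: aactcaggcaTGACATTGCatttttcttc
Gstm5: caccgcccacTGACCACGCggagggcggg
Mgst1: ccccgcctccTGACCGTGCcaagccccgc

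The Nfe2l2 window lay on chr2:75704885-75704913 (minus strand) and the Srxn1 window on chr2:152105542-152105570 (minus strand), just inside the transcribed region of Srxn1. Of the genes with a match, Nfe2l2 and Srxn1 passed the test in at least 1 comparison and the other 7 passed in none. Among the 11 genes that passed in any comparison, Gpx1, Gpx7, Cat, Prdx4, Txnip, Gstm1, Gstp1 and Keap1 had no match in their windows.

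Levels of different genes were compared as CPM per kilobase of annotated exon, averaged over all 19 libraries. Sod1, the copper and zinc dismutase of the cytosol, had the highest level at 459, followed by Gstm1 at 403, Txnip at 386, Gpx3 at 386 and Gstm2 at 331. Nqo1, a quinone reductase and a textbook NRF2 target, had the lowest at 4.94, next to mitochondrial Txnrd2 at 5.10. Gclm, the modifier subunit of the enzyme that begins glutathione synthesis, stood at 8.84 and its catalytic partner Gclc at 47.6. Within an age, the most variable genes were Gpx3, Gsto1 and Gsta3, with SDs of 0.59, 0.42 and 0.40 on the log2 scale, and the least variable were Prdx1, Gstp1 and Txn1, with SDs of 0.070, 0.073 and 0.079.

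**Figure D1:**
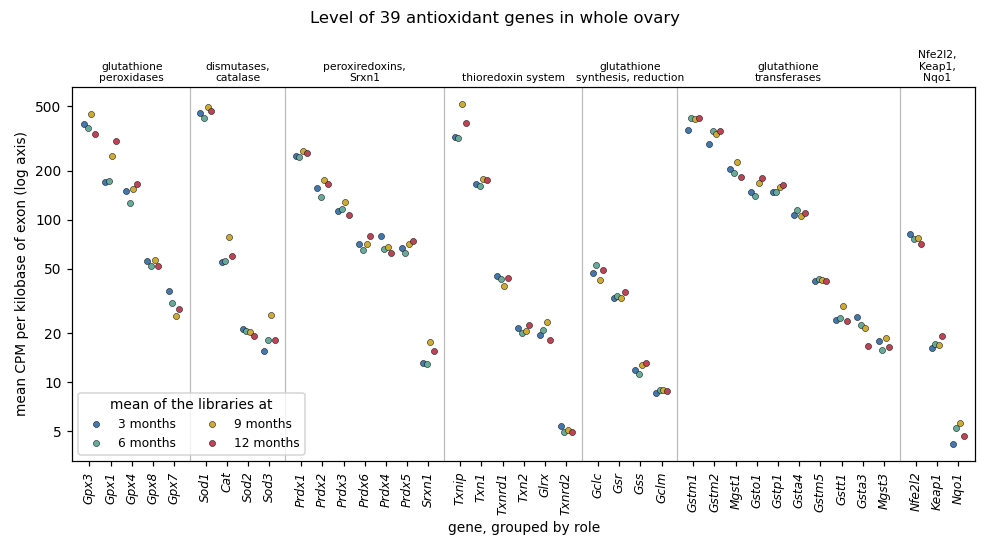
Mean level of each of the 39 genes at each age, as CPM per kilobase of exon on a log axis, grouped by role. Sod1, Gstm1, Txnip and Gpx3 sit at the top, Nqo1 and Txnrd2 at the bottom, and the 4 ages of a gene lie close together beside the spread between genes.

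The mean of Gpx1 (chr9:108338903-108340343, plus strand) was highest at 12 months. Its CPM was 173, 199, 180, 172 and 183 at 3 months, 180, 217, 167, 183 and 176 at 6 months, 304, 236, 298, 258 and 224 at 9 months, and 354, 269, 441 and 234 at 12 months. Every 9 and 12 month library was above every 3 and 6 month library. The log2 change at 12 against 3 months was 0.84 ± 0.14 (SE, adjusted p = 0.00115), and along the line with age it was 0.90 ± 0.14 over 9 months (adjusted p = 0.00036). The mean was 325 ± 92.6 CPM over the 4 libraries at 12 months and 181 ± 10.6 CPM over the 5 at 3 months (SD), so the older libraries were further apart. The 12 against 3 months call stood when any 1 library was left out, with log2 changes of 0.66 to 0.96, and with the macrophage markers as a covariate, at 0.81 and past the threshold.

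Gpx3, the peroxidase secreted into plasma, did not pass in any comparison, and it had the widest spread of the 39. Its CPM was 339, 711, 1192, 318 and 524 at 3 months, 830, 482, 365, 564 and 661 at 6 months, 466, 384, 826, 1083 and 791 at 9 months, and 438, 504, 454 and 749 at 12 months. The ages overlapped throughout, with a log2 change of −0.20 ± 0.38 at 12 against 3 months. Gpx4, which reduces lipid hydroperoxides in membranes, averaged 209 ± 37.8 CPM at 12 months and 192 ± 13.1 CPM at 3 months and did not pass (log2 0.13 ± 0.10). Without the 3 libraries rich in lymph node transcripts it passed (log2 0.23 ± 0.08, adjusted p = 0.0385), the 1 gene gained beside the same 5, in a fit that called 25% of all genes. At 6 months every library of Gpx4 was below every 3 month library, at 154 to 169 CPM at 6 months and 174 to 209 CPM at 3 months, with log2 −0.26 ± 0.09 and an adjusted p of 0.424.

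Gpx7 (chr4:108400390-108406961, minus strand), a cysteine peroxidase of the endoplasmic reticulum, went the other way from Gpx1. It had 53.4, 46.1, 47.3, 38.99 and 47.7 CPM at 3 months, 38.1, 36.5, 40.9, 41.1 and 40.0 CPM at 6 months, 30.2, 22.0, 41.6, 31.1 and 38.8 CPM at 9 months, and 36.0, 29.3, 34.5 and 45.4 CPM at 12 months. The mean was lowest at 9 months, where only library 3 overlapped the 3 month range. It was lower at 9 against 3 months (log2 −0.51 ± 0.14, adjusted p = 0.0113) and along the line with age (−0.43 ± 0.14, adjusted p = 0.0297), and did not pass at 12 against 3 months (−0.36 ± 0.15, adjusted p = 0.0795). Gpx8, the related cysteine peroxidase of the same compartment, had a log2 change of −0.09 ± 0.09 at 12 against 3 months and did not pass.

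Among the dismutases and catalase, 0 of 4 passed at 12 against 3 months and 2 passed at 9 against 3 months. Catalase (Cat, chr2:103453849-103485160, minus strand), which splits hydrogen peroxide in peroxisomes, had 141, 133, 163, 153 and 125 CPM at 3 months, 164, 142, 147, 139 and 134 CPM at 6 months, 251, 204, 198, 210 and 156 CPM at 9 months, and 159, 152, 152 and 162 CPM at 12 months. Sod3 (chr5:52363791-52371418, plus strand), the dismutase bound outside cells, had 56.2, 57.9, 58.6, 74.1 and 45.3 CPM at 3 months, 66.9, 77.6, 64.3, 62.6 and 67.0 CPM at 6 months, 93.8, 109, 108, 108 and 66.6 CPM at 9 months, and 71.8, 58.6, 68.4 and 75.0 CPM at 12 months. For both genes 9 month libraries 1 to 4 were above every library of the other ages, and library 5 lay within their range. At 9 against 3 months the log2 change was 0.51 ± 0.10 for Cat (adjusted p = 0.000991) and 0.73 ± 0.13 for Sod3 (adjusted p = 0.000701). At 12 against 3 months Cat stood at 0.13 ± 0.10 and Sod3 at 0.23 ± 0.14, neither of which passed.

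The other dismutases moved little. Sod1 averaged 299 ± 64.9 CPM at 12 months and 291 ± 11.6 CPM at 3 months (log2 0.04 ± 0.09). Sod2, the manganese dismutase of mitochondria, averaged 113 ± 16.8 CPM at 12 months and 124 ± 5.62 CPM at 3 months (log2 −0.14 ± 0.08). Neither passed in any comparison.

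Of the 6 peroxiredoxins and sulfiredoxin, 1 passed at 12 against 3 months. Prdx4 (chrX:155323918-155340754, minus strand) had 89.3, 70.7, 80.5, 68.7 and 82.5 CPM at 3 months, 66.4, 65.4, 60.0, 66.9 and 66.4 CPM at 6 months, 74.4, 60.0, 70.0, 60.8 and 72.7 CPM at 9 months, and 66.1, 52.5, 57.2 and 71.3 CPM at 12 months. Every 6 month library was below every 3 month library, and at 12 months libraries 1 to 3 were, while library 4 overlapped them. It was lower at 12 against 3 months (log2 −0.34 ± 0.10, adjusted p = 0.0159) and along the line with age (−0.30 ± 0.09, adjusted p = 0.0221). The 12 against 3 months call was lost without 12 month library 2 or 3, with −0.43 to −0.27 over all libraries left out in turn, and with the macrophage markers as a covariate.

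Srxn1 (chr2:152105516-152111376, plus strand) encodes sulfiredoxin, which repairs over-oxidized peroxiredoxins. It had 32.6, 41.0, 34.4, 39.9 and 37.0 CPM at 3 months, 32.1, 44.0, 32.7, 38.1 and 35.5 CPM at 6 months, 41.0, 46.6, 56.1, 54.1 and 51.1 CPM at 9 months, and 33.1, 49.6, 44.0 and 48.5 CPM at 12 months. At 9 months libraries 2 to 5 were above the 3 month range and library 1 was level with its top. It was higher at 9 against 3 months (log2 0.43 ± 0.11, adjusted p = 0.0108) and along the line with age (0.38 ± 0.14, adjusted p = 0.0406). The call along the line was lost in 12 of 19 fits that left out 1 library.

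Prdx1, the most abundant peroxiredoxin here per kilobase of exon and a cytosolic one, averaged 656 ± 23.7 CPM at 12 months and 623 ± 30.8 CPM at 3 months (log2 0.07 ± 0.05) and did not pass. With edgeR over all 19 libraries the remaining peroxiredoxins did not pass in any comparison. At 12 against 3 months their log2 changes were 0.08 for Prdx2, −0.09 for mitochondrial Prdx3, 0.15 for Prdx5 and 0.16 for Prdx6. Prdx3 passed at 9 against 3 months with DESeq2 (log2 0.18, adjusted p = 0.0429) and with limma-voom (log2 0.21, adjusted p = 0.0148).

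In the thioredoxin system 0 of 6 genes passed at 12 against 3 months, and Txnip passed at 9 months. TXNIP binds thioredoxin and blocks it, and its gene (chr3:96557957-96561883, plus strand) is known to respond to glucose. Txnip had 847, 776, 1081, 951 and 891 CPM at 3 months, 1203, 763, 880, 796 and 828 CPM at 6 months, 1432, 1647, 1553, 1531 and 1113 CPM at 9 months, and 1124, 1226, 983 and 1122 CPM at 12 months. Every 9 month library was above every 3 month library, and 9 month library 5 was below 6 month library 1 and 12 month libraries 1, 2 and 4. The log2 change was 0.68 ± 0.12 at 9 against 3 months (adjusted p = 0.000890), 0.29 ± 0.13 at 12 against 3 months (adjusted p = 0.111) and 0.54 ± 0.19 along the line with age (adjusted p = 0.0364). An antisense gene, Gm15441, overlaps Txnip on the other strand, and its own level was 0.289 to 1.47 CPM. The library kit keeps strand, and whether the counting used it is not given in the sources used here.

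Txn1, the cytosolic thioredoxin, averaged 184 ± 10.7 CPM at 12 months and 174 ± 10.3 CPM at 3 months (log2 0.08 ± 0.06). Its reductase Txnrd1 had a log2 change of −0.04 ± 0.10, mitochondrial Txn2 of 0.06 ± 0.09 and Txnrd2 of −0.13 ± 0.12. Glrx, a glutaredoxin that removes glutathione from proteins, stood at −0.11 ± 0.12. None of these passed in any comparison.

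For glutathione synthesis and reduction, 0 of 4 genes passed in any comparison. Gclc averaged 167 ± 26.7 CPM at 12 months and 161 ± 31.6 CPM at 3 months (log2 0.05 ± 0.15). Gclm had a log2 change of 0.03 ± 0.07, glutathione synthetase (Gss) of 0.13 ± 0.15 and glutathione reductase (Gsr) of 0.13 ± 0.06 at 12 against 3 months. With an SE of 0.06 to 0.15, a change as large as that of Gpx1 in these 4 genes lies outside 2 SE of the estimates.

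Of the 10 glutathione transferases, which join glutathione to electrophiles, 1 passed at 12 against 3 months. Gstm1 (chr3:108012255-108017973, minus strand) had 479, 470, 489, 574 and 414 CPM at 3 months, 542, 633, 592, 553 and 580 CPM at 6 months, 577, 654, 551, 496 and 548 CPM at 9 months, and 625, 515, 573 and 590 CPM at 12 months. The ages overlapped, with 3 month library 4 inside the range of the older ages. Its change at 12 against 3 months was log2 0.25 ± 0.09 (adjusted p = 0.0452), and the call was lost in 11 of 19 fits that left out 1 library, with no filter, with the macrophage covariate and with only the 2 ages in the fit. Gstm2, its neighbour on chromosome 3, had a log2 change of similar size, 0.27 ± 0.14, and did not pass. Reads of such closely related genes may have been split between them, so each value is uncertain.

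Gstp1 (chr19:4035407-4037985, minus strand) had 126, 114, 125, 125 and 119 CPM at 3 months, 126, 129, 117, 118 and 118 CPM at 6 months, 134, 123, 141, 122 and 136 CPM at 9 months, and 130, 128, 142 and 135 CPM at 12 months. Every 12 month library was above every 3 month library, by a small margin. It passed along the line with age (log2 0.16 ± 0.05, adjusted p = 0.0290) and missed the threshold at 12 against 3 months (0.14 ± 0.06, adjusted p = 0.0782). Its near copy Gstp2 makes that value uncertain too. The other 7 transferases passed in no comparison, with log2 changes at 12 against 3 months from −0.58 for Gsta3 to 0.30 for Gsto1, which had an SE of 0.25.

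The regulator and its inhibitor moved apart at 12 months. Nfe2l2 (chr2:75675513-75704641, minus strand) had 204, 192, 213, 206 and 189 CPM at 3 months, 196, 185, 201, 175 and 178 CPM at 6 months, 179, 204, 192, 202 and 178 CPM at 9 months, and 183, 180, 176 and 161 CPM at 12 months. Keap1 (chr9:21229730-21239361, minus strand) had 75.3, 71.1, 75.7, 73.9 and 68.7 CPM at 3 months, 84.7, 82.4, 77.3, 71.4 and 69.3 CPM at 6 months, 77.5, 71.8, 82.3, 73.4 and 73.9 CPM at 9 months, and 81.7, 82.5, 96.2 and 83.5 CPM at 12 months. Every 12 month library was below every 3 month library for Nfe2l2 and above every one for Keap1, while the 6 and 9 month libraries overlapped both.

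At 12 against 3 months Nfe2l2 had log2 −0.20 ± 0.06 (adjusted p = 0.0247) and Keap1 log2 0.24 ± 0.07 (adjusted p = 0.0188). Along the line with age they stood at −0.16 ± 0.06 (adjusted p = 0.0409) and 0.20 ± 0.07 (adjusted p = 0.0291). The call of Nfe2l2 along the line was lost in 10 of 19 fits that left out 1 library. It was also lost with no filter and without the libraries with lymph node transcripts. The call of Keap1 along the line was lost in 4 of 19 such fits and with the macrophage covariate. The 12 against 3 months call of Nfe2l2 was lost with limma-voom and without 3 month library 3, 12 month library 3 or 12 month library 4. That of Keap1 was lost without 12 month library 3, its highest, and with the macrophage markers as a covariate, where Nfe2l2 still passed. Nqo1 had a mean of 7.22 ± 1.56 CPM at 12 months, and its log2 change of 0.16 ± 0.22 did not pass.

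**Figure D2:**
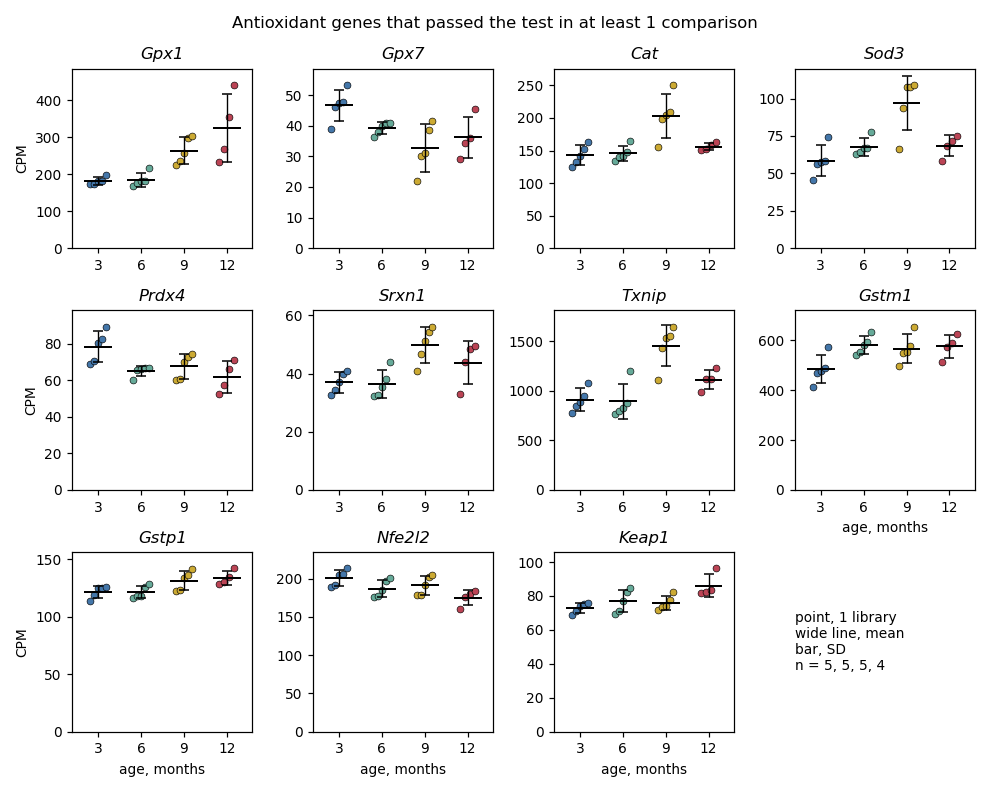
CPM of the 11 genes that passed the test in at least 1 comparison, in each library at 3, 6, 9 and 12 months (axes start at 0; wide line, mean; bar, SD). Gpx1 is high at 9 and 12 months, Cat, Sod3 and Txnip peak at 9 months with 1 low library there, and at 12 months Nfe2l2 lies below and Keap1 above the 3 month libraries.

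The 12 against 3 months comparison as a whole left most of the group close to 0. The median log2 change was 0.06 over the 39 genes and 0.02 over all genes tested, and the median size of change without its sign was 0.13 and 0.21. Of the 39, 25 had a change above 0, a share that was not set against all genes, whose median was also above 0. Gpx1, Keap1 and Gstp1 did not overlap with 3 months on the higher side and Nfe2l2 on the lower side, 4 genes beside 16.5% of all genes tested. At an unadjusted p under 0.05 there were 10 genes, against 36.1% of all genes.

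At 9 against 3 months 6 of 39 passed, beside 25% of all genes tested. Gpx1 (log2 0.54 ± 0.13, adjusted p = 0.0069), Sod3, Cat, Srxn1 and Txnip were higher and Gpx7 was lower, with a median log2 change of 0.09 over the 39 and 0.01 over all genes. Gpx1 and Txnip did not overlap between the ages, beside 15% of all genes. The mean was highest at 9 months for 16 of the 39 genes (41.0%) and for 25.0% of all genes tested.

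The 9 month values came with liver and macrophage transcripts in libraries 1 to 4. Granulosa markers summed to 2386, 1155, 2025 and 1711 CPM there and to 3278 CPM in library 5. The 3 month libraries had granulosa sums of 2356 to 3527 CPM. Oocyte and theca sums were also the highest of that age in library 5, at 135 and 650 CPM. Library 5, with little Alb and the lowest macrophage sum of that age, 681 CPM, had the lowest 9 month value of 9 of the 39 genes, Gpx1, Gpx8, Cat, Sod3, Txnip, Glrx, Gstt1, Mgst1 and Nfe2l2. Library 2 was the lowest for 14 genes and library 4 for 9, so being low in many genes was not particular to library 5. Each of the 6 calls stood when any 1 library was left out. Without libraries 1 to 4 only library 5 remained at 9 months, assumed to vary like the other ages, and 0 of the 39 passed, in a fit that called 0.0559% of all genes, so the 0 says nothing of these genes. The log2 changes were then 0.30 for Gpx1, 0.13 for Cat, 0.19 for Sod3, 0.29 for Txnip, 0.47 for Srxn1 and −0.27 for Gpx7. With the macrophage markers as a covariate 0 passed as well, beside 1.28% of all genes in place of 25%, with log2 changes of 0.51 for Gpx1, 0.30 for Cat, 0.47 for Sod3, 0.40 for Txnip, 0.60 for Srxn1 and −0.15 for Gpx7. Cr2, a follicular dendritic and B cell marker, stood at 6.17 and 10.7 CPM in 9 month libraries 1 and 2 and at 12.5 CPM in 12 month library 2. Without those 3 libraries 8 of the 39 passed at 9 against 3 months, beside 17.6% of all genes. Gpx7 was then lost (log2 −0.31), and Prdx1 (0.17), Prdx2 (0.35) and Prdx3 (0.25) were gained. The part of liver RNA in the 9 month values cannot be told apart from age in these libraries. Macrophage sums were 681 to 1399 CPM at 9 months and 817 to 1291 CPM at 12 months. Beyond the covariate fit, the part of macrophage RNA was not tested.

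**Figure D3:**
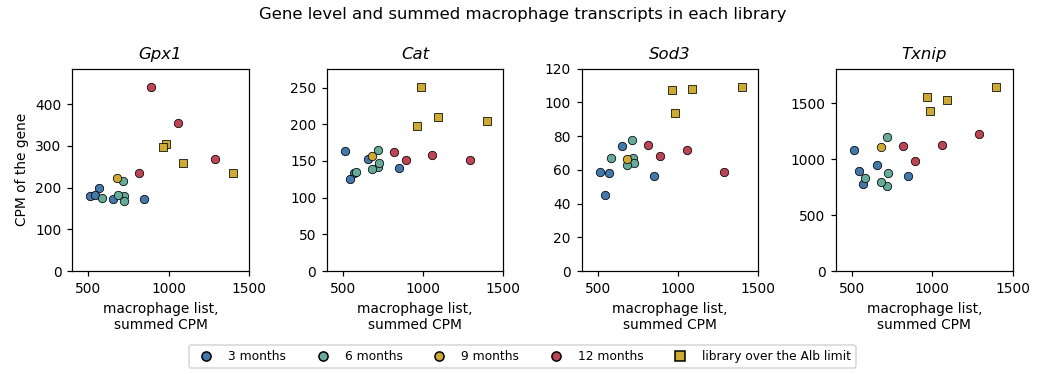
CPM of Gpx1, Cat, Sod3 and Txnip against the summed CPM of 12 macrophage markers in each library, coloured by age, with squares for the libraries whose Alb level was over 10 times the median library. The 4 squares, all from 9 months, hold the highest values of Cat, Sod3 and Txnip, and the remaining 9 month library lies with the other ages for these genes, while Gpx1 is highest in a 12 month library.

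At 6 against 3 months 0 of 39 passed with edgeR, beside 0.0193% of all genes tested, and 3 had an unadjusted p under 0.05. Those were Gstm1, higher, and Gpx4 and Prdx4, lower. Gpx4 and Prdx4 did not overlap between the ages, 2 genes beside 3.62% of all. With DESeq2 the count was 0, beside 0.277% of all genes, and with limma-voom and sample weights it was 2, Gpx4 and Gstm1, beside 1.12%. At 12 against 9 months 0 of 39 passed with edgeR, beside 0% of all genes, and 10 had an unadjusted p under 0.05, 2 of them higher. None of the 39 was free of overlap between 12 and 9 months, beside 2.26% of all genes.

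DESeq2 called 4 genes lower at 12 than at 9 months, Cat (log2 −0.39), Sod3 (−0.51), Mgst1 (−0.31) and Prdx3 (−0.28), beside 1.65% of all genes in either direction. Without 9 month library 5 edgeR called those and Glrx, 5 in all, at −0.48 for Cat, −0.62 for Sod3, −0.38 for Mgst1, −0.30 for Prdx3 and −0.46 for Glrx, beside 1.79% of all genes.

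The straight line with age gave 8 of 39, beside 29.5% of all genes. Gpx1, Keap1, Srxn1, Txnip and Gstp1 were higher and Gpx7, Prdx4 and Nfe2l2 lower. The count was 4 without any 1 of 3 month libraries 1, 2 and 5 or 12 month library 3. In that order, these fits called 25.9%, 27.1%, 24.5% and 24.6% of all genes. Only the call of Gpx1 stood in each of the 19 fits that left out 1 library. The comparisons against 3 months share the 3 month libraries, and the line uses all of them, so their calls are not separate evidence.

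**Figure D4:**
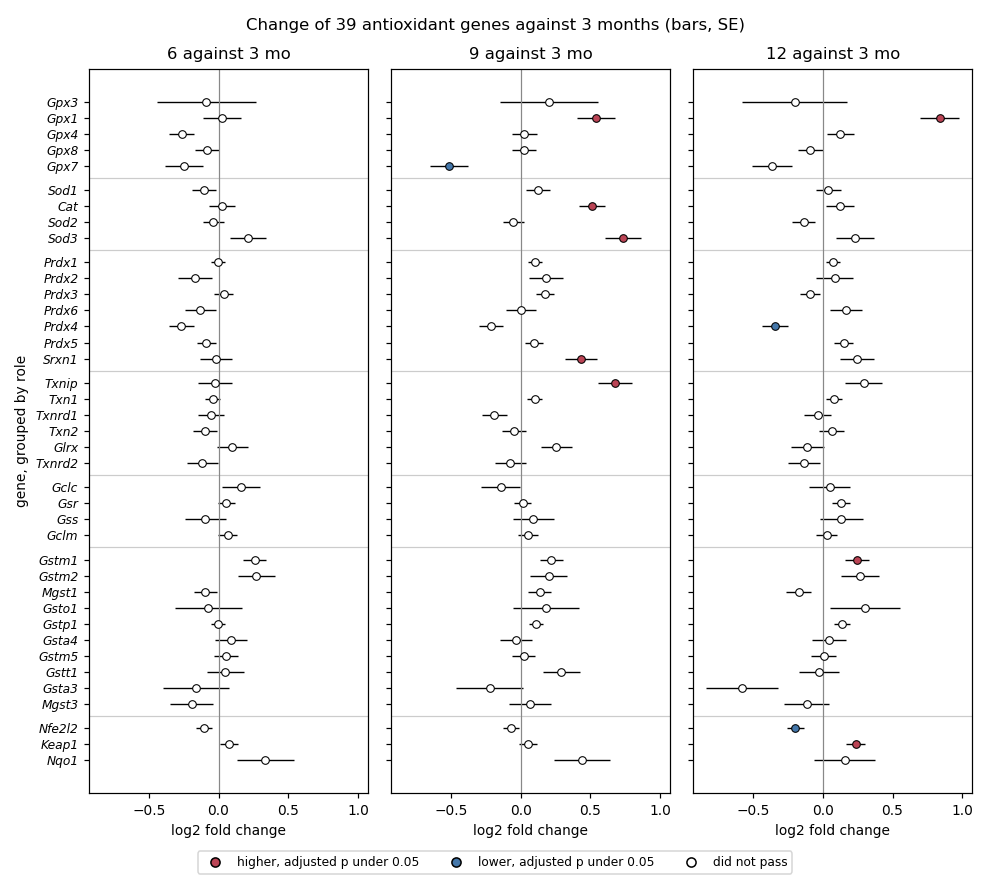
Log2 fold change of the 39 genes at 6, 9 and 12 months against 3 months, with bars of 1 SE, grouped by role. Filled points passed an adjusted p of 0.05 (red higher, blue lower). The 6 month panel has 0 filled points, the 9 month panel 6 and the 12 month panel 5, where Gpx1 lies farthest from 0.

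Ratios within a library do not depend on how libraries were scaled, and 5 pairs were compared at 12 and 3 months with two-sided exact permutation tests. The log2 ratio of Nfe2l2 to Keap1 was 1.17, 1.12, 0.87 and 0.94 at 12 months and 1.44, 1.43, 1.49, 1.48 and 1.46 at 3 months. Every 12 month library was below every 3 month library, with a difference of −0.43 (exact p = 0.0159, the smallest that 4 against 5 libraries allow; adjusted over the 5 ratios, 0.0794). The adjusted value misses 0.05. Nfe2l2 and Keap1 each separated these ages, in opposite directions, so the separation of their ratio and its exact p followed from that. The ratio is not separate evidence. At 6 months this ratio ran from 1.17 to 1.38 and at 9 months from 1.21 to 1.51.

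The log2 ratio of Gpx1 to Gpx4 was 0.83, 0.72, 1.005 and −0.12 at 12 months and −0.19, 0.19, −0.21, −0.18 and −0.01 at 3 months. Libraries 1 to 3 of 12 months were above all of 3 months and library 4 was within their range, with a difference of 0.69 (exact p = 0.0476, adjusted 0.106). Sod2 to Sod1 differed by −0.16 (exact p = 0.0635, adjusted 0.106), Txnip to Txn1 by 0.22 (exact p = 0.143, adjusted 0.179) and Gclc to Gclm by 0.03 (exact p = 0.873). None of the 5 passed after adjustment. A single ratio at the smallest exact p could not pass over 5 tests, since its adjusted value is then 0.0794.

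**Figure D5:**
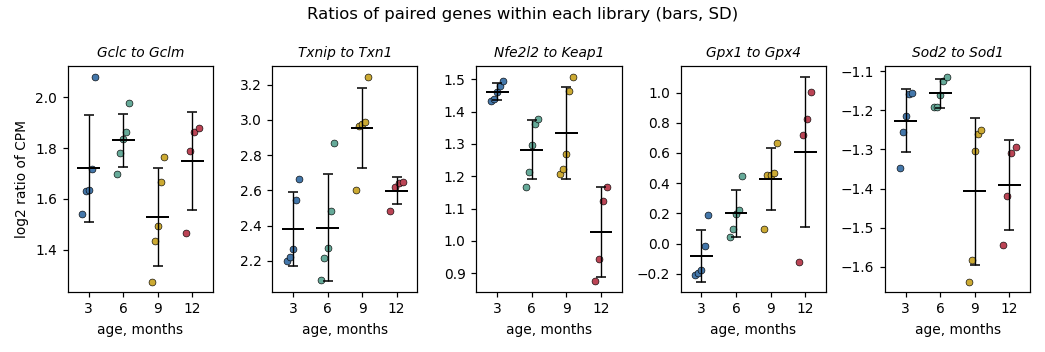
Log2 ratio of CPM of 5 gene pairs in each library at 3, 6, 9 and 12 months (wide line, mean; bar, SD; the axes do not start at 0). The Nfe2l2 to Keap1 ratio is tight at 3 months, 1.43 to 1.49, and lies at 0.87 to 1.17 at 12 months, while 1 of the 4 libraries at 12 months is low for Gpx1 to Gpx4.

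Libraries 4 and 2 of 12 months were set apart in different ways, as seen once the values were in hand. Library 4 was the highest of its age for 15 of the 39 genes, among them Gpx3 at 749 CPM, Gpx4 at 254, Sod1 at 395, Sod2 at 136, Prdx2 at 416, Prdx6 at 280 and Txnrd1 at 223, and the lowest for 9, among them Gpx1 at 234 and Nfe2l2 at 161. Library 2, the 12 month library with lymph node transcripts, was the lowest for 20 of the 39 and the highest for 5. In library 4 the corpus luteum markers summed to 13186 CPM, against 5752 to 7244 CPM in the other libraries of that age. With the corpus luteum markers as a covariate, 5 of the 39 passed at 12 against 3 months, the same 5 genes, beside 22% of all genes. Without library 4 Nfe2l2 and Gstm1 were lost and Gpx7 and Sod2 passed.

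The wider pathway was read from 8 lists holding 97 distinct genes that were tested. In 12 against 3 months, 10.9% of all genes tested were higher and 11.5% lower. Of 16 other glutathione enzymes, 4 were higher and 0 lower. Ggt5, which cleaves glutathione outside cells, averaged 54.2 ± 4.56 CPM at 12 months and 27.2 ± 5.41 CPM at 3 months (log2 0.99 ± 0.18, adjusted p = 0.0018). Chac1, which degrades glutathione inside cells, averaged 3.24 ± 1.11 CPM at 12 months and 1.14 ± 0.48 CPM at 3 months (log2 1.49 ± 0.30, adjusted p = 0.0032). Cbs, which starts the route from homocysteine to cysteine, averaged 348 ± 154 CPM at 12 months and 170 ± 48.2 CPM at 3 months (log2 1.04 ± 0.30, adjusted p = 0.0199).

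Of 14 other glutathione transferases 2 were higher, Gstt3 (log2 0.72) and the prostaglandin D synthase Hpgds (log2 1.26), and 1 was lower, Gstcd (−0.39). Of 14 other thioredoxin-fold and methionine repair genes 1 was higher, the methionine sulfoxide reductase Msrb2 (log2 0.62), and 1 lower, Glrx3 (−0.26). Of 10 NADPH-supplying enzymes 2 were higher, Taldo1 (log2 0.31) and G6pdx (log2 0.37), both of the pentose phosphate pathway.

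Of 20 NRF2 partners and targets 5 were higher and 1 lower. Ftl1 and Fth1, the ferritin chains that store iron, stood at 1348 ± 125 and 1264 ± 48.7 CPM at 12 months and at 999 ± 82.4 and 1044 ± 75.8 CPM at 3 months (log2 0.43 and 0.28, adjusted p = 0.0024 and 0.0046). Cul3, the ubiquitin ligase scaffold that works with KEAP1, was lower (log2 −0.24, adjusted p = 0.0086). The median of this list was 0.00, against 0.02 over all genes.

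Of 10 oxidant-producing enzymes 4 were higher, with a median log2 change of 0.76. Cyba and Rac2, parts of the NADPH oxidase of phagocytes, averaged 57.1 ± 5.20 and 27.4 ± 20.3 CPM at 12 months and 35.9 ± 4.61 and 8.71 ± 0.52 CPM at 3 months. Their log2 changes were 0.67 ± 0.12 and 1.65 ± 0.45. Without 12 month library 2, which holds the lymph node transcripts, Rac2 stood at log2 1.03 and lost its call. With the macrophage markers as a covariate, Cyba and Rac2 lost their calls at 12 against 3 months. That fit called 4.89% of all genes, against 22.4% without the covariate. Beyond the covariate fit, the part of macrophage RNA in the change was not tested.

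Of 10 genes for selenoprotein synthesis and selenium transport, the selenoprotein Sepw1 was higher (log2 0.48, adjusted p = 0.0006) and Sephs1 lower (−0.19). Of 8 other genes protecting from oxidants 3 were higher, the metallothioneins Mt2 (log2 0.75) and Mt1 (log2 0.55), which bind metals, and Hmox2 (log2 0.19). In all 8 lists 0 genes passed at 6 against 3 months or at 12 against 9 months with edgeR.

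Of the 21 pathway genes taken by the naming rule, 13 kept their call at 12 against 3 months whichever library was left out. Cbs, Gstcd, Hpgds, G6pdx, Rac2, Sephs1, Mt1 and Hmox2 lost it without at least 1 library. With the macrophage markers as a covariate 5 kept it, Chac1, Ftl1, Cul3, Taldo1 and Sepw1, in a fit that called 759 of all genes (4.89%), against 3475 without the covariate. At 9 against 3 months, where 11.3% of all genes tested were higher and 13.6% lower, the lists gave 2 higher and 0 lower for other glutathione enzymes, 3 and 1 for other transferases, 1 and 0 for the thioredoxin fold, 5 and 1 for NRF2 partners and targets, 2 and 1 for NADPH supply, 5 and 0 for oxidant producers, 3 and 2 for selenoprotein synthesis and 4 and 0 for other protection.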

How the data were processed

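Ovaries were frozen, RNA was extracted and libraries were made with a directional kit, per the labels' protocols. The authors deposited estimated counts per gene that need not be whole (17.4% to 21.4% of those above 0 were whole, within 1e-08), on RefSeq genes, per the file headers. The submitters' processing notes name the build mm10, and no source used here gives the aligner, counter or strand setting. The authors also deposited log2 values, relative to the 3 month median, used here only as an alternative. In each table, 1 column of per-library values matched no sample and was not used.

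Estimated counts were rounded and tested over all 19 libraries with edgeR 4.0.16 (quasi-likelihood, robust, TMM, R 4.3.3) after a filter (minimum count 10, minimum total 15), with a mean per age, or age in months as a number and the slope given over 9 months. SE is the log2 change divided by the square root of F. P-values were adjusted by Benjamini-Hochberg over all 15518 genes (threshold 0.05). Ratios used 0.5 added counts and exact permutation tests in scipy. Library totals of 10851519 to 14302207 set the counting precision of each value. Of the 39 genes, 13 overlap a gene on the opposite strand. The steps were checked on simulated counts.

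Alternatives were RLE factors, DESeq2 1.42.0, limma-voom and limma-trend (limma 3.58.1), other filters, marker covariates, left-out libraries (Cr2 over 5 CPM, a lymph node mark, or Alb over 10 times the median), only the ages compared and 2 added counts for the ratios. Genes were named if past the threshold, or as the most abundant remaining of each role. From each pathway list up to 3 genes with the smallest p were named, of which 1 is not reported here. The genes, lists and tests were chosen with earlier results of these data known.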

Additional observations from a re-analysis of the deposited data

Results flagged for a closer look

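In 176 sets of values (39 genes and 5 ratios at 4 ages), 13 held 1 library far from the rest of its age by Dixon's 95% value. Chance alone gives about 1 in 20 sets. At 12 months library 4 was far above the others for Prdx6 (280 CPM, against 164 to 183), Txnrd1 (223, against 156 to 166) and Prdx3 (176, against 150 to 152). Library 2 of that age was high for Txn1 (199 CPM, against 176 to 180) and low for Gsr (87.8, against 98.2 to 98.5) and Gstm5 (32.1, against 44.7 to 45.3). Library 3 was high for Keap1 (96.2 CPM, against 81.7 to 83.5) and low for the log2 ratio of Txnip to Txn1 (2.48, against 2.62 to 2.65).

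At the younger ages, Sod2 was high in 3 month library 3 (134 CPM, against 119 to 123) and Gstt1 in 3 month library 4 (45.3, against 31.2 to 34.8). Txnip was high in 6 month library 1 (1203 CPM, against 763 to 880), Prdx4 low in 6 month library 3 (60.0, against 65.4 to 66.9) and Gsta3 high in 9 month library 1 (57.3, against 23.9 to 31.6). In that 9 month library the 7 adipocyte markers summed to 2095 CPM, against at most 1131 CPM in any other.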

How the results depend on the processing

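The count of 5 genes at 12 against 3 months was 2 with the macrophage covariate and 1 to 6 over libraries left out in turn. It was 1 without 12 month library 3, in a fit that called 13.5% of all genes, against 22.4% over all 19 libraries. At 9 against 3 months the count of 6 was 0 with the macrophage covariate and 6 to 11 over libraries left out in turn. It was 11 without 9 month library 5, in a fit that called 28.9% of all genes. The count was 8 with DESeq2 and 9 with the corpus luteum covariate, beside 28.1% and 27.7% of all genes. At 6 against 3 months it was 2 with limma-voom. At 12 against 9 months it was 4 with DESeq2 and 0 to 5 over libraries left out. Along the line with age the count of 8 was 2 with the macrophage covariate, 5 without the libraries with lymph node transcripts and 4 to 9 over libraries left out. The calls over all genes moved too. At 12 against 3 months 3475 fell to 759 with the macrophage covariate, at 9 against 3 months 3872 fell to 199 with it and to 9 without the libraries with liver transcripts, and along the line 4576 fell to 512 with it and to 4235 without the libraries with lymph node transcripts. At 6 against 3 months limma-voom called 174 genes and at 12 against 9 months DESeq2 called 256. The cause of these moves was not tested. The log2 ratio of Gclc to Gclm ran from −0.017 to 0.123 over libraries left out. Txnip to Txn1 ran from 0.171 to 0.287, Nfe2l2 to Keap1 from −0.480 to −0.383, Gpx1 to Gpx4 from 0.555 to 0.929 and Sod2 to Sod1 from −0.197 to −0.114.

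Of 639 values for single genes under an alternative, 539 kept their direction and side of the threshold, 94 lost the threshold and 6 turned, all of genes that did not pass. Those 6, at 12 against 3 months, were Nqo1 at −0.24, Gclc at −0.025 and Gpx3 at 0.61 with the macrophage covariate, Gclc at −0.0046 and Gpx3 at 0.14 with the corpus luteum covariate, and Sod1 at −0.017 with limma-voom. These values leave out the fits without 1 library for the 7 named genes that did not pass, 133 values, of which 0 passed and 4 turned. Those were Gpx3 at 0.18 without 3 month library 3, Sod1 at −0.13 without 12 month library 4, and Gclc at −0.012 without 3 month library 2 and −0.034 without 12 month library 1. Their cause was not tested. No paired analysis was possible because the labels give no replicate number shared between ages.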
